A study of Mus musculus with 36 samples.

Results

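The comparison of late active phase with late rest phase in control (normoxic) liver rests on 6 of the 36 livers of the study, 3 taken at ZT8 and 3 at ZT20. ZT (Zeitgeber time) counts hours from lights on. The 6 livers were chosen by the labels alone, as the control samples of these 2 time points. All were from wild-type male C57BL/6JRj mice, 16 weeks old, kept on 12 h of light and 12 h of dark with chow and water freely available, so food was not withheld before either time point. Control mice spent 4 weeks in air-to-air cycles that matched the gas cycling of the IH mice. The IH mice, used here as the comparison, had 60 cycles per hour of hypoxia and reoxygenation, down to 5% oxygen, from ZT0 to ZT8 each day for the same 4 weeks. ZT8 lies late in the light phase, when mice mostly sleep, and ZT20 lies late in the dark phase, when they are active and feed. Polyadenylated RNA of whole liver pieces was sequenced, 1 library per mouse, and the deposited value is FPKM, the fragments per kilobase of transcript per fixed number of mapped fragments. Of 24346 symbols, 24066 had a single row, and the 13215 whose average over all 36 livers reached 0.1 FPKM were tested.

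Most mammalian cells carry a clock in which the activators BMAL1 (gene Arntl) and CLOCK switch on their own repressors, the PER and CRY proteins, which then shut the activators off until they decay. A connected loop sets the nuclear receptors REV-ERB (Nr1d1, Nr1d2), which repress Arntl, against ROR proteins, which activate it. In liver, this clock and the daily cycle of feeding and fasting together drive rhythms in lipid, sugar, bile acid and drug metabolism.

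The 6 libraries were alike in overall make-up. Across the tested genes, replicates correlated with r from 0.989 to 0.993 at ZT8 and from 0.992 to 0.993 at ZT20, and libraries of different time points with r from 0.981 to 0.986. Low values moved in steps of whole reads, and these steps placed the depth of the libraries between 0.817 and 1.04 times that of ZT8 replicate 1. The steps were sought only within a window around equal depth, so a much larger difference could not have been found. The absolute depth is unknown. ZT8 replicate 1 and ZT20 replicate 1 stood apart by the acute-phase genes. Saa1 was at 828 FPKM in the former and 2242 FPKM in the latter, against 19.1 to 161 FPKM in the other 4 libraries, so both groups held 1 such liver. Albumin (Alb) was at 23400 FPKM in ZT8 replicate 1 and between 32297 and 36210 FPKM in the other 5. The defining hepatocyte genes were abundant in all 6 livers, and none of the marker genes of the other liver cell types was called different apart from the cholangiocyte genes described below.

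Of the 13215 genes, 707 (5.35%) were higher at ZT20 and 865 (6.55%) were higher at ZT8 by limma on log2(FPKM + 1) at a Benjamini-Hochberg adjusted p under 0.05, which is the threshold meant wherever a gene is said to be called, to rise or to fall. In either direction, 1572 genes (11.9%) were called, and in each of them the 3 values of one time point lay wholly above the 3 of the other, as they did in 34% of all tested genes. The called differences were mostly modest, with a median size of 0.46 on the log2 scale. A difference of at least 1 was reached by 96 of the 707 genes higher at ZT20 and by 66 of the 865 higher at ZT8. The median difference of all tested genes, ZT20 minus ZT8, was -0.02. These counts rested on the full set of 6 livers. Without ZT8 replicate 1 there were 696 genes higher at ZT20 and 1399 higher at ZT8. Leaving out any of the other 5 livers left 300 to 437 and 204 to 307. A fit in which all 18 control livers of the 6 time points shared 1 estimate of spread, termed the pooled fit, called 374 and 224. Counts of list members are to be read against the 5.35% and 6.55% of all tested genes.

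**Figure D1:**
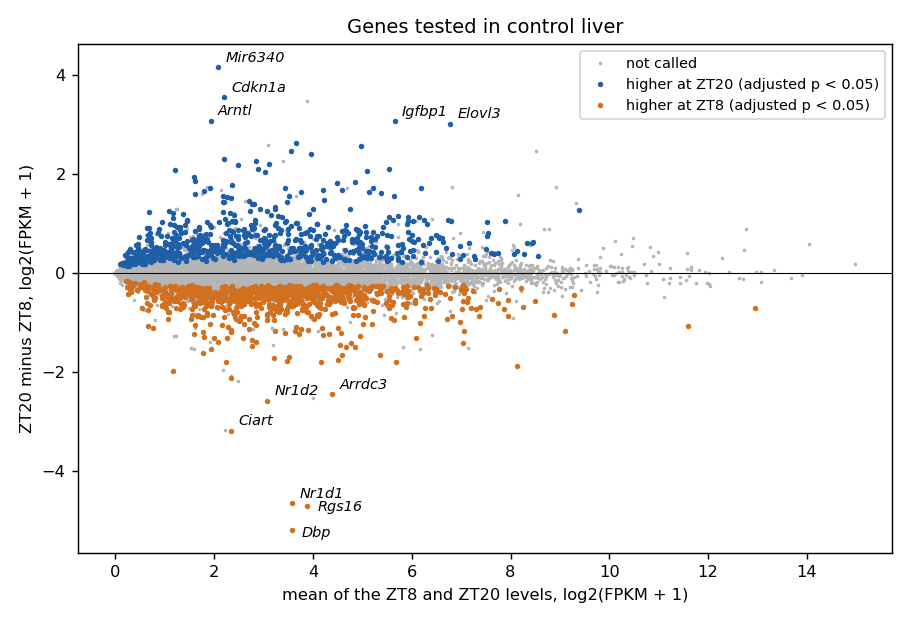
Difference between ZT20 and ZT8 (vertical axis, log2(FPKM + 1)) against the mean level (horizontal axis, log2(FPKM + 1)) for the 13215 genes tested in control liver. Each point is a gene, blue for the 707 called higher at ZT20, orange for the 865 called higher at ZT8 and grey for the rest, and Dbp, Nr1d1 and Rgs16 lie farthest below 0.

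The clock genes held several of these differences. Among the activators, 4 of 5 tested genes rose from ZT8 to ZT20 and none fell, with a list median of 1.24 against -0.02 over all genes tested. Arntl (chr7:113207465-113314126 in mm10), the gene of BMAL1, was at 0.372, 0.318 and 0.228 FPKM in the 3 ZT8 livers and at 9.01, 10.8 and 10.4 FPKM in the 3 ZT20 livers. Its mean was 32.8-fold higher at ZT20 (log2 difference 3.08 ± 0.09, SE, adjusted p = 1.53e-05), and the ranges of the time points lay far apart. Npas2, a paralogue of Clock that can take its place, was at 0.0618, 0.0342 and 0.0377 FPKM at ZT8 and at 1.15, 1.54 and 1.77 FPKM at ZT20, nearly silent at one time and low at the other (log2 difference 1.24 ± 0.09, SE, adjusted p = 0.00107). Clock itself changed less, from 1.71 ± 0.10 to 3.44 ± 0.42 FPKM (mean ± SD, n = 3), a 2.02-fold rise (adjusted p = 0.00599). Rora, the gene of an activating ROR receptor, was at 3.35 ± 0.54 and 4.82 ± 0.51 FPKM and was not called (adjusted p = 0.0602), although its 3 ZT20 values lay above its 3 ZT8 values.

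The repressors mostly went the other way, with 6 of 10 lower at ZT20, 1 higher and a list median of -0.89. Nr1d1 (chr11:98767932-98775333), the gene of REV-ERBα, was at 51.8, 64.3 and 60.4 FPKM at ZT8 and at 1.67, 1.17 and 1.35 FPKM at ZT20. That is a 42.2-fold higher mean at ZT8 (log2 difference -4.64 ± 0.11, SE, adjusted p = 1.13e-05), the opposite of Arntl in the same livers. Nr1d2, the gene of REV-ERBβ, had 17.0, 19.5 and 22.2 FPKM at ZT8 and 2.96, 2.15 and 2.21 FPKM at ZT20, 8.01-fold higher at ZT8. Ciart, whose product represses CLOCK and BMAL1, was at 10.4, 16.2 and 16.4 FPKM at ZT8 and at 0.630, 0.918 and 0.473 FPKM at ZT20, 21.3-fold higher at ZT8 (adjusted p = 0.000411). Bhlhe41, which encodes the E-box-binding repressor DEC2, was 13.1-fold higher at ZT8 but low at both times (1.29 ± 0.17 and 0.0981 ± 0.0571 FPKM, SD, n = 3). Its relative Bhlhe40, which encodes DEC1, was abundant and differed only 1.56-fold (58.97 ± 3.18 and 37.7 ± 8.1 FPKM). The call of Bhlhe40 (adjusted p = 0.0382) was lost in 5 of the 6 fits that each left out 1 liver, all but the one without ZT20 replicate 1, with an adjusted p of up to 0.105, and in the pooled fit (0.506).

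The period and cryptochrome genes did not move as a group. Per3 was at 3.96, 5.21 and 5.77 FPKM at ZT8 and at 0.819, 1.37 and 0.713 FPKM at ZT20, 5.15-fold higher at ZT8 (log2 difference -1.61 ± 0.16, SE, adjusted p = 0.00292). Per1 had 7.65, 13.3 and 14.1 FPKM at ZT8 and 5.78, 6.94 and 6.74 FPKM at ZT20, and Per2 had 3.92, 5.48 and 5.62 FPKM against 3.20, 5.49 and 3.52 FPKM. Neither was called (adjusted p = 0.0737 and 0.423), and in Per2 the values of the 2 time points overlapped. Cry1 was the repressor that rose. It was at 1.77, 1.98 and 3.07 FPKM at ZT8 and at 12.2, 17.9 and 13.9 FPKM at ZT20, 6.47-fold higher at ZT20 (log2 difference 2.27 ± 0.19, SE, adjusted p = 0.00151). Cry2 was at 9.91 ± 1.39 and 7.70 ± 0.97 FPKM and was not called (adjusted p = 0.134).

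Downstream of this loop, the PAR bZIP proteins DBP, TEF and HLF activate genes through D-box sites, and NFIL3 represses through the same sites. Dbp (chr7:45705088-45710203) showed the largest log2 difference of the 13215 tested genes, at 62.9, 78.4 and 71.2 FPKM at ZT8 and at 0.746, 1.42 and 0.818 FPKM at ZT20. The ZT8 mean was 71.1-fold the ZT20 mean (log2 difference -5.18 ± 0.14, SE, adjusted p = 1.53e-05). Tef was also higher at ZT8, 3.32-fold, at 31.1, 44.2 and 49.1 FPKM against 11.5, 15.1 and 10.8 FPKM. Hlf leaned the same way without being called (10.2 ± 2.5 and 6.42 ± 1.34 FPKM, adjusted p = 0.1). Nfil3, the opponent of these 3 activators, was at 3.57, 4.35 and 4.14 FPKM at ZT8 and at 25.9, 24.6 and 30.2 FPKM at ZT20, 6.70-fold higher at ZT20 (log2 difference 2.47 ± 0.10, SE, adjusted p = 0.000112).

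**Figure D2:**
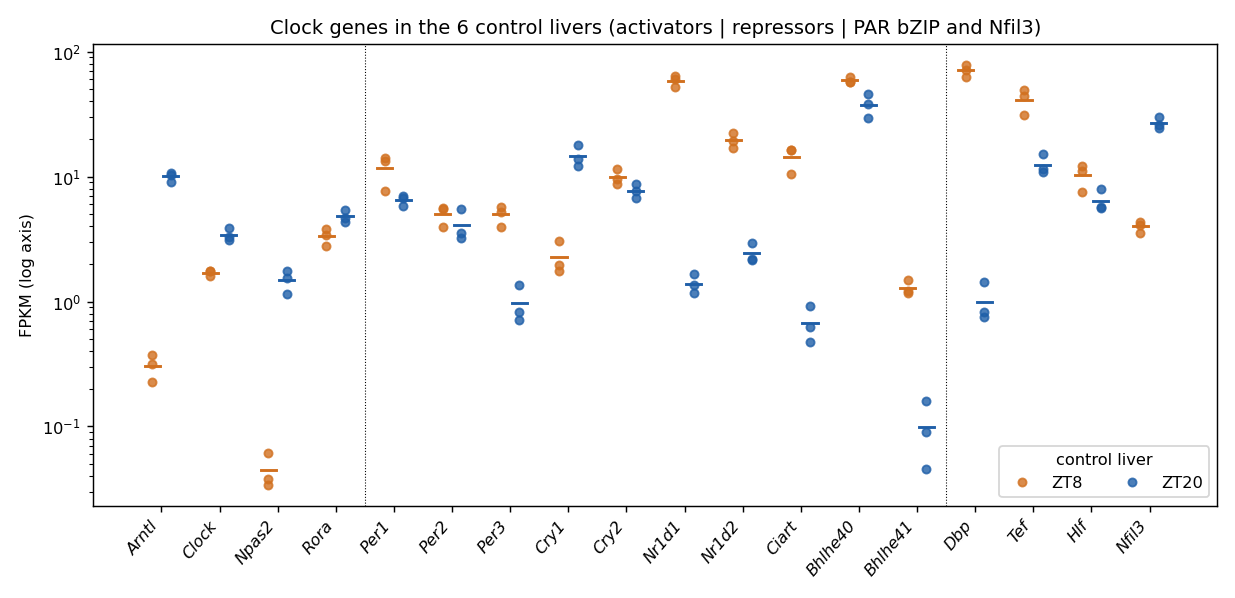
FPKM (log axis) of 18 clock genes in the 6 control livers, orange for ZT8 and blue for ZT20, with each point a liver and each bar the mean of 3. Arntl, Npas2, Cry1 and Nfil3 sit higher at ZT20, Nr1d1, Nr1d2, Ciart, Bhlhe41, Dbp, Tef and Per3 sit higher at ZT8, and the points of Per2 overlap.

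BMAL1 with CLOCK binds the E-box and the PAR bZIP proteins bind the D-box, so promoter stretches of the 5 called clock genes that hold such letters within 250 bases before the start are shown. They are RefSeq sequences of GRCm38.p6 (mm10), read 5′ to 3′ on the strand of the gene, with the E-box CACGTG and the D-box TTANNTAA in capitals. Both motifs read the same on both strands.
Ciart, chr3:95882237-95882374, minus strand: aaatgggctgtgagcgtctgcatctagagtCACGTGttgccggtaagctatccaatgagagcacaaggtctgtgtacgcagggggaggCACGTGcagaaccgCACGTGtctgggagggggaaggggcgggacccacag
Bhlhe41, chr6:145865538-145865603, minus strand: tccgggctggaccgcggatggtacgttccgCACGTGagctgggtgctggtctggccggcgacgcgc
Cry1, chr10:85185079-85185144, minus strand: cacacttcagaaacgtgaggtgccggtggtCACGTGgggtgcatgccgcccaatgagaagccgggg
Per3, chr4:151044786-151044900, minus strand: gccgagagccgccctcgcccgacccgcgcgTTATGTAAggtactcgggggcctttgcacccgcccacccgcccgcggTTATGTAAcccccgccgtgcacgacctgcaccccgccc
Tef, chr15:81802469-81802581, plus strand: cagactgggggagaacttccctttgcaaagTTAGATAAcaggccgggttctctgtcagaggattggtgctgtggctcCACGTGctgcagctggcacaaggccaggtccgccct
Ciart held 3 E-boxes, Bhlhe41 and Cry1 held 1 each, Per3 held 2 D-boxes and no E-box, and the Tef window shown held 1 of each. A second Tef window, not shown, held a further E-box. Cry1 and Ciart both carry the E-box close to the start, at -60 in Cry1 and at -58 and -44 in Ciart, and Cry1 was higher at ZT20 and Ciart at ZT8. Promoters were found for 16 of the 19 tested clock genes, 21 windows in all, and 6 of these (28.6%) held the E-box and 2 (9.52%) the D-box. Over all 32851 promoter windows of the same length, 6.02% held the E-box and 5.43% the D-box. The matches are letters in a window and were not tied to the measured differences by any test.

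The other 12 control livers, taken at ZT0, ZT4, ZT12 and ZT16 from other mice, show where the 2 time points fall in the day. Arntl was at 10.7 ± 1.4 FPKM (SD, n = 3) at ZT0, 7.68 ± 0.83 at ZT4, 0.468 ± 0.268 at ZT12 and 5.73 ± 0.93 at ZT16, so ZT8 and ZT20 lie near its trough and its crest. Nr1d1 was already at 39.1 ± 14.3 FPKM at ZT4 and back at 10.4 ± 3.8 FPKM at ZT12, and Dbp was at 3.73 ± 0.89 FPKM at ZT4 and 31.9 ± 24.5 FPKM at ZT12. Per2, which differed little between the 2 time points, had its highest mean at ZT16 (12.7 ± 3.8 FPKM) and its lowest at ZT4 (1.102 ± 0.280 FPKM), on either side of both. The ZT12 livers varied widely among themselves in several of these genes, Dbp among them. Among the 4 other time points, the genes called higher at ZT20 most often had their highest mean at ZT0 (54.6%, against 38.2% of all tested genes) or ZT16 (25.7%, against 13.9%). Those called higher at ZT8 had it most often at ZT12 (44%, against 27%) or ZT4 (34.3%, against 20.9%).

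**Figure D3:**
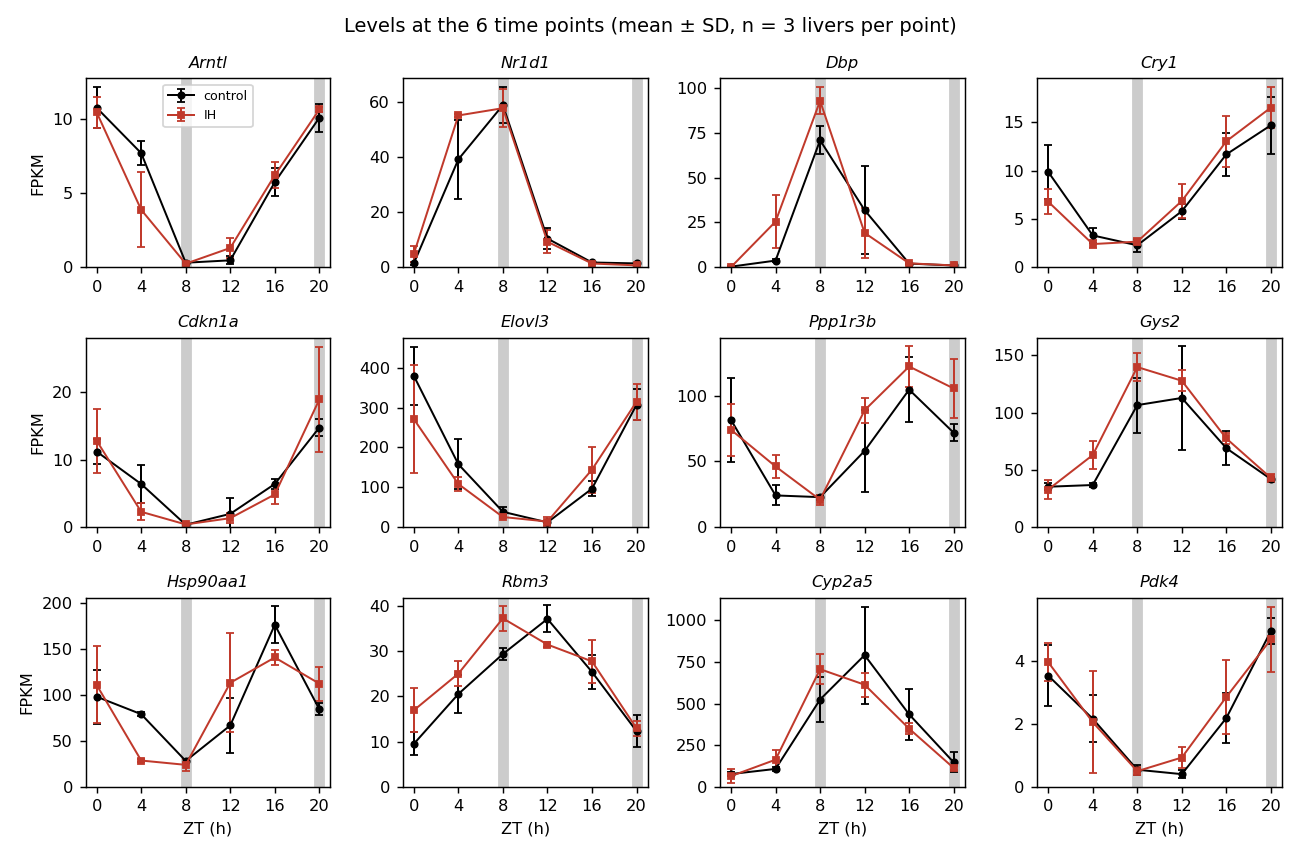
FPKM (mean ± SD, 3 livers per point) of 12 genes at the 6 time points in control (black) and IH (red) liver, with ZT8 and ZT20 shaded. Arntl, Cdkn1a, Elovl3 and Pdk4 are near their lowest at ZT8 and high at ZT20, Nr1d1 and Dbp are highest at ZT8, and Hsp90aa1 is highest at ZT16 in control.

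Beyond the clock, the 10 largest differences toward ZT20 included genes of growth control, membrane lipids and lipid elongation. Cdkn1a (chr17:29090976-29100727), which encodes the cell cycle inhibitor p21, was at 0.373, 0.252 and 0.399 FPKM at ZT8 and at 15.0, 13.4 and 16.0 FPKM at ZT20, 43.3-fold higher (log2 difference 3.55 ± 0.09, SE, adjusted p = 1.13e-05). Elovl3 (chr19:46131897-46135694), an elongase of very long chain fatty acids, was at 53.5, 31.1 and 30.2 FPKM at ZT8 and at 279, 290 and 352 FPKM at ZT20, 8.03-fold higher. Igfbp1, a secreted binder of insulin-like growth factors that insulin represses, was at 16.6, 13.4 and 19.4 FPKM at ZT8 and at 150, 159 and 125 FPKM at ZT20, 8.79-fold higher. Its level varied widely between livers at other times, with 99.6 ± 165 FPKM (SD, n = 3) at ZT12, and its call was lost in the pooled fit (adjusted p = 0.205). Chka, the choline kinase that opens phosphatidylcholine synthesis, was at 4.27, 3.89 and 4.08 FPKM at ZT8 and at 31.3, 28.0 and 32.5 FPKM at ZT20, 7.49-fold higher.

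Tubb2a, a β-tubulin gene, rose 6.41-fold (11.8 ± 2.0 to 75.6 ± 15.4 FPKM), Cml5 6.12-fold (5.72 ± 0.51 to 35.0 ± 4.8 FPKM) and Fam222a 8.84-fold (1.05 ± 0.42 to 9.29 ± 3.13 FPKM). Tubb2a and Cml5 have close relatives in the genome, and reads shared with them cannot be assigned with certainty. Toward ZT20 the largest log2 difference belonged to Mir6340, a microRNA gene at chr2:173701030-173701148. It was listed at 0 in all 3 ZT8 livers and at 18.4, 14.4 and 18.2 FPKM in the ZT20 livers, with no level between 0 and 10.8 FPKM in any of the 36 libraries and 12 libraries above 0. Its feature is too short for FPKM to resolve low read numbers, and no fold change is given. The microRNA itself is not measured by a library of polyadenylated RNA.

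On the ZT8 side, the 10 largest differences held 4 clock genes (Dbp, Nr1d1, Ciart and Nr1d2) and 6 others. Rgs16 (chr1:153740349-153745468), a regulator of G protein signalling, was at 50.2, 75.6 and 90.4 FPKM at ZT8 and at 1.68, 0.754 and 3.35 FPKM at ZT20, 37.4-fold higher at ZT8 (log2 difference -4.70 ± 0.35, SE, adjusted p = 0.00107). Arrdc3, an arrestin-domain gene linked to receptor traffic, was at 55.7, 39.7 and 46.8 FPKM at ZT8 and at 9.97, 4.99 and 9.47 FPKM at ZT20, 5.82-fold higher at ZT8. Clec2h was 6.62-fold higher at ZT8 (9.495 ± 1.641 and 1.44 ± 0.53 FPKM, SD, n = 3), and the predicted gene Gm10804 was 27.2-fold higher (3.46 ± 0.78 and 0.127 ± 0.032 FPKM). Cyp2a5, a cytochrome P450 that oxidises coumarin and nicotine, was at 368, 607 and 599 FPKM at ZT8 and at 107, 217 and 117 FPKM at ZT20, 3.57-fold higher at ZT8. It shares most of its sequence with Cyp2a4, which was called in the same direction, so the split between the 2 genes is uncertain. Rdh9, a retinol dehydrogenase family gene, was at 16.9, 45.0 and 38.3 FPKM against 7.37, 10.3 and 7.14 FPKM.

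Not all of these held when 1 liver was left out. The call of Rdh9 was lost in 5 of the 6 such fits, all but that without ZT8 replicate 1 (adjusted p up to 0.0817), and that of Cyp2a5 in 3, without ZT8 replicate 2, ZT8 replicate 3 or ZT20 replicate 3 (up to 0.0598). The other 18 of these 20 genes kept their calls in all 6. The pooled fit lost the calls of Igfbp1, Mir6340 and Clec2h (adjusted p = 0.205, 0.0869 and 0.0537).

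Of 25 tested genes of cholesterol synthesis, 7 were called higher at ZT20 (Pmvk, Mvd, Dhcr7, Fdps, Lss, Hmgcs1 and Sqle) and 1 lower (Stard4, which moves sterol between membranes rather than making it), 17 were not called, and the list median was 0.26. Pmvk, which phosphorylates phosphomevalonate, was at 24.4, 33.1 and 33.5 FPKM at ZT8 and at 72.0, 67.4 and 62.3 FPKM at ZT20, 2.22-fold higher (adjusted p = 0.00483). Mvd, the next enzyme of the pathway, rose 2.13-fold from 7.98 ± 1.20 to 17.0 ± 1.3 FPKM (SD, n = 3). Fdps, which makes farnesyl diphosphate, was at 144, 145 and 130 FPKM against 246, 255 and 238 FPKM. Dhcr7, the last step to cholesterol, rose 1.81-fold from 26.8 ± 3.2 to 48.4 ± 1.8 FPKM. Over the fits without 1 liver each, 5 to 7 members were higher at ZT20. The pooled fit called 2 higher and none lower, and lost Pmvk, Mvd and Fdps (adjusted p = 0.131, 0.0769 and 0.310).

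Fatty acid synthesis was split. In that list 5 of 20 genes were called higher at ZT20 (Acacb, Insig2, Acly, Pnpla3 and Acss2) and 2 lower (Mid1ip1 and Fads2). Acacb, the acetyl-CoA carboxylase whose product restrains fatty acid oxidation, was at 5.56, 5.68 and 6.01 FPKM at ZT8 and at 18.4, 16.2 and 17.2 FPKM at ZT20, 3.00-fold higher (log2 difference 1.44 ± 0.07, SE, adjusted p = 0.000217). Insig2, which holds the SREBP pathway in check, rose 2.18-fold (40.2 ± 10.9 to 87.7 ± 5.6 FPKM), and Acly, which supplies cytosolic acetyl-CoA, rose 2.09-fold (41.4 ± 8.9 to 86.4 ± 12.4 FPKM). Mid1ip1, which activates acetyl-CoA carboxylase, was 1.83-fold higher at ZT8 (39.4 ± 6.3 and 21.6 ± 4.2 FPKM). Fasn, the synthase itself, was at 32.7, 36.9 and 54.3 FPKM and 62.5, 51.3 and 39.3 FPKM, with overlapping groups (adjusted p = 0.418). The calls of Acly and Mid1ip1 were each lost in some fits without 1 liver. For Acly these were the fits without ZT8 replicate 2 or ZT20 replicate 2 (adjusted p up to 0.0561), and for Mid1ip1 those without ZT8 replicate 3, ZT20 replicate 2 or ZT20 replicate 3 (up to 0.083). Both were also lost without both livers of high Saa1 (0.0634 and 0.0699). The list as a whole gave 2 to 5 genes higher at ZT20 and 0 to 3 higher at ZT8 when 1 liver was left out.

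Genes of fatty acid oxidation and ketone body production, many of them targets of PPARα, the receptor that responds to fasting, gave 2 of 32 higher at ZT20 (Pdk4 and Plin5) and 3 lower (Cpt1a, Bdh1 and Fabp1), with a list median of -0.22. In the main fit these shares lie near those of all tested genes. Cpt1a, which admits fatty acids to mitochondria, was at 88.8, 107 and 107 FPKM at ZT8 and at 50.9, 50.5 and 64.4 FPKM at ZT20, 1.82-fold higher at ZT8 (adjusted p = 0.00923). Bdh1, which makes the ketone body β-hydroxybutyrate, was 1.86-fold higher at ZT8 (77.3 ± 13.1 and 41.4 ± 4.9 FPKM). Pdk4, the kinase that blocks pyruvate oxidation, went the other way, at 0.354, 0.647 and 0.626 FPKM at ZT8 and 5.01, 5.31 and 4.51 FPKM at ZT20, 9.12-fold higher. Plin5, a lipid droplet coat protein, rose 1.96-fold (13.3 ± 2.5 to 26.0 ± 2.2 FPKM). Cpt2 was at 57.3 ± 6.7 and 66.8 ± 10.2 FPKM and was not called (adjusted p = 0.351). The number lower at ZT20 depended on the livers used. Without ZT8 replicate 1 it was 14 of the list, where that fit called 1399 of all 13215 genes lower. Without both livers of high Saa1 it was 8, with 742 of all tested genes. Leaving out any other liver gave 1 or 2 of the list. The call of Bdh1 was lost without ZT8 replicate 3 or ZT20 replicate 3 (adjusted p up to 0.057). The call of Cpt1a was lost in the pooled fit (adjusted p = 0.105).

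Within sugar metabolism, glycogen genes moved in both directions. Gys2, the liver glycogen synthase, was at 79.1, 117 and 124 FPKM at ZT8 and at 43.3, 39.7 and 42.7 FPKM at ZT20, 2.54-fold higher at ZT8 (log2 difference -1.30 ± 0.16, SE, adjusted p = 0.00669). Ppp1r3b and Ppp1r3c, subunits that bring phosphatase to glycogen and so favour the synthase, were higher at ZT20, and Ppp1r3g, of the same family, was not called (adjusted p = 0.0571). Ppp1r3b was at 20.5, 23.6 and 24.1 FPKM at ZT8 and at 72.8, 77.7 and 64.9 FPKM at ZT20, 3.16-fold higher, and Ppp1r3c rose 3.46-fold from 12.3 ± 2.5 to 42.5 ± 12.2 FPKM. Pfkfb1, which sets the level of the glycolytic signal fructose 2,6-bisphosphate, rose 2.06-fold (11.1 ± 2.2 to 22.9 ± 2.0 FPKM). In all, 3 of 21 genes of glycogen and glucose use were higher at ZT20 and 5 higher at ZT8 (Gys2, Gckr, Phka2, Slc2a2 and Ugp2). Pygl, the glycogen phosphorylase, was at 137 ± 13 and 174 ± 12 FPKM and was not called (adjusted p = 0.0539). When 1 liver was left out, 3 to 4 of the list were higher at ZT20 and 1 to 7 higher at ZT8, with 7 without ZT8 replicate 1 and 1 without ZT8 replicate 2 or ZT20 replicate 3. The pooled fit gave 4 and 2. Without both livers of high Saa1 there were 1 and 8, and the calls of Ppp1r3c and Pfkfb1 were lost (adjusted p = 0.0523 and 0.0502).

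Gluconeogenesis had 2 of 12 genes higher at ZT20 and 1 lower, against 5.35% and 6.55% of all tested genes. G6pc, whose enzyme releases glucose from the liver, was at 180, 150 and 156 FPKM at ZT8 and at 331, 269 and 428 FPKM at ZT20, 2.12-fold higher (adjusted p = 0.0136). Sik1, a kinase that restrains the gluconeogenic programme, rose 2.83-fold (4.31 ± 0.31 to 12.2 ± 4.8 FPKM). Slc37a4, which carries glucose 6-phosphate to G6pc, was 1.62-fold higher at ZT8 (74.3 ± 7.7 and 45.9 ± 4.8 FPKM). Pck1 and Fbp1, whose enzymes catalyse earlier steps, were not called (adjusted p = 0.64 and 0.521), at 995 ± 171 and 1108 ± 236 FPKM for Pck1 and 577 ± 22 and 608 ± 19 FPKM for Fbp1. Pcx, pyruvate carboxylase, was at 119 ± 9 and 99.7 ± 1.9 FPKM (adjusted p = 0.0738). The calls of G6pc and Sik1 were lost without ZT8 replicate 2 and without ZT8 replicate 3 (adjusted p up to 0.0563 and 0.0711) and in the pooled fit (0.309 and 0.0724). That of G6pc was also lost without both livers of high Saa1.

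Of 18 genes of bile acid and sterol handling, 6 were called higher at ZT8 (Abcg5, Abcg8, Abcc2, Abcb4, Slc10a1 and Slco1b2), 2 higher at ZT20 (Cyp8b1 and Baat) and 10 not at all, with a list median of -0.29. The 6 are all transporters and the 2 are enzymes of bile acid synthesis. Abcg5 and Abcg8 encode partners in the pump that secretes cholesterol into bile. Abcg5 was at 40.6, 51.4 and 50.5 FPKM at ZT8 and at 15.6, 13.9 and 19.3 FPKM at ZT20, 2.92-fold higher at ZT8, and Abcg8 was at 36.1, 47.3 and 46.1 FPKM against 13.5, 13.5 and 20.1 FPKM, 2.75-fold higher at ZT8. Abcc2, the canalicular exporter of conjugates, was 1.85-fold higher at ZT8 (36.8 ± 5.3 and 19.8 ± 2.3 FPKM). Cyp8b1, which steers synthesis toward cholic acid, was at 141, 123 and 120 FPKM at ZT8 and at 223, 291 and 278 FPKM at ZT20, 2.06-fold higher (adjusted p = 0.00476). Cyp7a1, the rate-limiting enzyme, was at 21.9 ± 3.8 and 20.4 ± 10.7 FPKM with overlapping groups (adjusted p = 0.749), and is mentioned after its value was seen. Of the 18 differences 4 were positive. Over the fits without 1 liver each, 3 to 8 members were higher at ZT8 and 1 at ZT20. That 1 was Cyp8b1 each time, so Baat lost its call in all of these fits. The pooled fit called 2 higher at ZT8 and none at ZT20, and lost Abcc2 and Cyp8b1 (adjusted p = 0.124 and 0.0594).

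In drug metabolism, 4 of 28 tested genes were higher at ZT8 (Cyp2a5, Cyp2a4, Cyp2e1 and Por) and 1 at ZT20 (Cyp3a13), against 6.55% and 5.35% of all tested genes. Por, the reductase that supplies electrons to all microsomal P450 enzymes, was at 155, 189 and 187 FPKM at ZT8 and at 74.2, 87.9 and 106 FPKM at ZT20, 1.98-fold higher at ZT8 (adjusted p = 0.010). Cyp2e1, the ethanol-oxidising P450, was 2.09-fold higher at ZT8, at 4447 ± 873 and 2127 ± 347 FPKM. Cyp3a13 rose 1.501-fold, from 42.1 ± 3.0 to 63.2 ± 0.8 FPKM. The call of Cyp2e1 was lost without ZT8 replicate 2, ZT8 replicate 3, ZT20 replicate 1 or ZT20 replicate 3 (adjusted p up to 0.0719). Over the fits without 1 liver each, 1 to 5 of the list were higher at ZT8, and the call of Cyp3a13 was lost in the pooled fit (adjusted p = 0.119). Cyp2b9 and Cyp2b13 were below the expression minimum.

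Amino acid breakdown showed no common direction, with 3 of 30 genes higher at ZT20 (Tat, Gldc and Asl), 4 higher at ZT8 (Oat, Gpt, Glul and Bckdha) and a list median of -0.04. The shares over all tested genes were 5.35% and 6.55%, and without 1 liver the list gave 0 to 6 and 1 to 4. Tat, which starts tyrosine breakdown, was at 351, 348 and 595 FPKM at ZT8 and at 944, 940 and 1181 FPKM at ZT20, 2.37-fold higher (adjusted p = 0.017). Oat, ornithine aminotransferase, was at 314, 368 and 309 FPKM at ZT8 and at 192, 172 and 180 FPKM at ZT20, 1.82-fold higher at ZT8 (adjusted p = 0.00342). Gldc, of the glycine cleavage system, rose 1.92-fold (30.3 ± 7.5 to 58.0 ± 5.9 FPKM), and Gpt, alanine aminotransferase, was 1.26-fold higher at ZT8 (149 ± 9 and 118 ± 3 FPKM). The call of Tat was lost without ZT8 replicate 2, ZT20 replicate 2 or ZT20 replicate 3 (adjusted p up to 0.063), and those of Gldc and Gpt without any liver but ZT8 replicate 1 (up to 0.0706 and 0.105). Oat kept its call in all 6 of these fits. Without both livers of high Saa1, the calls of Tat and Gpt were lost.

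Of 24 tested chaperones of the heat shock response, 9 were called higher at ZT20, none was called lower, 21 had a positive difference and the list median was 0.38. Hsp90aa1, the inducible cytosolic HSP90, was at 30.4, 26.7 and 27.5 FPKM at ZT8 and at 90.5, 85.4 and 77.6 FPKM at ZT20, 3.00-fold higher (log2 difference 1.55 ± 0.08, SE, adjusted p = 0.000265). Its constitutive partner Hsp90ab1 was at 267, 260 and 255 FPKM against 397, 401 and 390 FPKM, 1.52-fold higher with very little spread. The HSP90 cochaperone Fkbp4 rose 1.73-fold (47.9 ± 1.9 to 82.9 ± 7.0 FPKM), and Hspa4l, of the HSP110 family, rose 2.44-fold (2.42 ± 0.39 to 5.89 ± 0.68 FPKM). The largest difference of the list was that of the small heat shock protein gene Hspb1, named here after its value was seen. It was at 25.4, 14.3 and 8.88 FPKM at ZT8 and at 50.3, 74.1 and 75.6 FPKM at ZT20, 4.12-fold higher, though the call was lost without ZT8 replicate 2, ZT20 replicate 2 or ZT20 replicate 3 (adjusted p up to 0.0616). The remaining called members were Hsph1, Serpinh1, Ahsa1 and Stip1. Hspa8, the abundant constitutive HSP70, was not called (406 ± 54 and 432 ± 28 FPKM, adjusted p = 0.631). Over the fits without 1 liver each, 7 to 10 members were called higher and none lower, and 9 were called higher without both livers of high Saa1 and in the pooled fit.

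Rbm3 and Cirbp, RNA-binding protein genes that rise when cells are cooled, fell. Rbm3 was at 30.8, 29.0 and 28.4 FPKM at ZT8 and at 16.4, 9.51 and 11.1 FPKM at ZT20, 2.39-fold higher at ZT8 (log2 difference -1.22 ± 0.18, SE, adjusted p = 0.00993), and Cirbp was at 16.1, 14.9 and 12.9 FPKM against 9.98, 7.94 and 9.59 FPKM, 1.599-fold higher at ZT8. No ZT20 value of either gene reached its lowest ZT8 value, and the call of Cirbp was lost without ZT8 replicate 2, ZT20 replicate 2 or ZT20 replicate 3 (adjusted p up to 0.0708) and in the pooled fit (0.206). At the time between, Hsp90aa1 reached 176.5 ± 20.3 FPKM at ZT16 and Rbm3 37.1 ± 3.0 FPKM at ZT12. Body temperature was not part of these data.

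Genes of the unfolded protein response, which adjusts the folding capacity of the endoplasmic reticulum, gave 9 of 29 higher at ZT20 and 1 lower, with a list median of 0.37. The 9 were folding and quality-control proteins of the endoplasmic reticulum (Pdia3, Pdia4, Pdia6, Calr, Canx, Dnajb11, Dnajc3, Edem1 and Sdf2l1). Pdia4, a protein disulfide isomerase, was at 44.4, 47.9 and 50.5 FPKM at ZT8 and at 80.9, 82.4 and 70.0 FPKM at ZT20, 1.63-fold higher (adjusted p = 0.00607). Pdia3 rose 1.54-fold (115 ± 5 to 177 ± 15 FPKM) and Dnajc3 1.37-fold (27.7 ± 1.3 to 37.99 ± 2.93 FPKM). Trib3, a pseudokinase induced by the stress arm of the response, was at 4.53, 5.25 and 7.01 FPKM at ZT8 and at 1.27, 1.27 and 1.19 FPKM at ZT20, 4.505-fold higher at ZT8 (log2 difference -1.54 ± 0.14, SE, adjusted p = 0.00199). This count was sensitive to the livers used, with 2 to 9 members higher at ZT20 when 1 was left out, the lowest count coming without ZT8 replicate 2 and without ZT8 replicate 3. The call of Dnajc3 was lost without ZT8 replicate 2 or ZT8 replicate 3 (adjusted p up to 0.0673). In the pooled fit 5 members were higher at ZT20, and Pdia4 and Dnajc3 were no longer called (adjusted p = 0.131 and 0.0814).

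**Figure D4:**
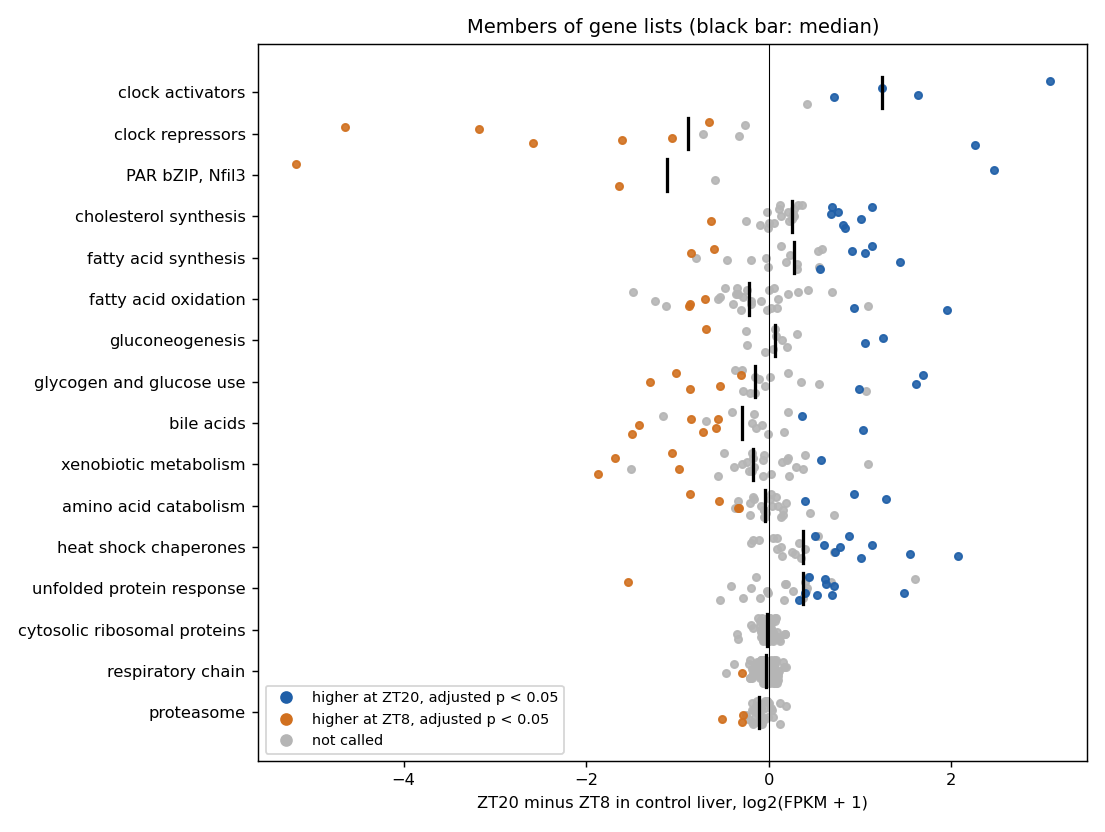
Difference between ZT20 and ZT8 in control liver (horizontal axis, log2(FPKM + 1)) for the tested members of 16 gene lists, with each point a gene, blue or orange where called higher at ZT20 or ZT8 and grey otherwise, and the black bar the list median. Heat shock chaperones and clock activators hold called genes on the right alone, and ribosomal proteins, respiratory chain and proteasome lie close to 0.

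Hormone-related lists held a few called members. Among glucocorticoid targets, 3 of 14 were higher at ZT20 and none lower. Besides Cdkn1a these were Tsc22d3, which encodes the anti-inflammatory protein GILZ and was at 26.2, 30.9 and 42.5 FPKM at ZT8 and 63.8, 71.5 and 75.2 FPKM at ZT20, and Zbtb16, which rose from 0.632 ± 0.266 to 2.21 ± 0.68 FPKM. Klf9, another target, was at 21.6 ± 3.5 and 16.7 ± 0.3 FPKM and was not called (adjusted p = 0.110). At an unadjusted limma p under 0.05 the glucocorticoid list held 4 of 14 genes, against 29% of all tested genes. In IH liver it gave 2 genes called higher at ZT20 and 4 higher at ZT8. In the insulin and growth hormone list, 4 of 19 were higher at ZT20 (Igfbp1, Irs2, Stat5a and Grb10) and 2 at ZT8 (Igfbp4 and Akt1). Irs2, an insulin receptor substrate whose gene falls when insulin is high, was at 1.36, 1.32 and 1.27 FPKM at ZT8 and at 2.42, 4.34 and 3.68 FPKM at ZT20, 2.64-fold higher. Igfbp4 was at 762, 768 and 720 FPKM against 489, 463 and 501 FPKM, 1.55-fold higher at ZT8 (adjusted p = 0.00464), and Akt1 was 1.24-fold higher (20.9 ± 0.4 and 16.8 ± 0.3 FPKM). The call of Igfbp4 held in every fit without 1 liver. Those of Tsc22d3 (without ZT8 replicate 2 or ZT20 replicate 3), Zbtb16 (without ZT8 replicate 3, ZT20 replicate 1 or ZT20 replicate 3), Irs2 (without ZT8 replicate 2, ZT8 replicate 3 or ZT20 replicate 3) and Akt1 (without any but ZT8 replicate 1) were lost, with adjusted p of up to 0.0537, 0.0761, 0.0626 and 0.0808. The pooled fit lost Tsc22d3, Zbtb16, Akt1 and Igfbp1 (0.211, 0.0662, 0.170 and 0.205).

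Immediate early genes gave 1 called gene of 16, higher at ZT8, against 6.55% of all tested genes. The largest difference of the list, 2.26 toward ZT20, was that of a gene not called. Klf10, a TGFβ-inducible transcription factor, was at 15.3, 12.7 and 18.9 FPKM at ZT8 and at 5.83, 2.90 and 3.67 FPKM at ZT20, 3.79-fold higher at ZT8 (adjusted p = 0.00734). Gadd45a (2.91 ± 0.06 and 1.29 ± 0.68 FPKM, adjusted p = 0.0528), Btg2 (2.45 ± 0.81 and 5.13 ± 1.73 FPKM, adjusted p = 0.0674) and Zfp36 (55.3 ± 15.4 and 34.5 ± 8.4 FPKM, adjusted p = 0.118) were not called.

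Cell cycle genes were tested for 20 of 25, since 5 mitotic genes (Ccnb1, Mki67, Top2a, Aurkb and Bub1b) were below the expression minimum. Of the 20, 3 were higher at ZT8 and none at ZT20, and the list median was -0.03. Ccnd1, cyclin D1, was at 9.82, 12.5 and 9.36 FPKM at ZT8 and at 4.94, 3.35 and 2.22 FPKM at ZT20, 3.01-fold higher at ZT8. Ccne1, cyclin E1, was at 1.04, 1.07 and 1.06 FPKM against 0.314, 0.156 and 0.202 FPKM, 4.72-fold higher at ZT8 (adjusted p = 0.00132). Wee1, the kinase that holds back entry to mitosis, was 3.86-fold higher at ZT8 (5.99 ± 2.52 and 1.55 ± 0.43 FPKM). Cdkn1a, an inhibitor outside this list, was higher at ZT20, while Wee1 was higher at ZT8 with the cyclins. A shared pattern of such regulators was not tested. The call of Ccnd1 was lost without ZT8 replicate 2 (adjusted p = 0.0538) and that of Wee1 without any liver but ZT8 replicate 1 (up to 0.101).

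NAD metabolism had 2 of 20 genes called each way, against 5.35% of all tested genes higher at ZT20 and 6.55% higher at ZT8. Nmnat3, a mitochondrial NAD synthetic enzyme, was at 4.11, 4.49 and 4.25 FPKM at ZT8 and at 2.21, 2.16 and 2.58 FPKM at ZT20, 1.85-fold higher at ZT8 (adjusted p = 0.00485). Nadsyn1, NAD synthetase, was 1.51-fold higher at ZT8 (10.4 ± 1.1 and 6.92 ± 0.62 FPKM). Naprt, the entry enzyme for nicotinic acid, was 1.195-fold higher at ZT20 (40.6 ± 1.8 and 48.5 ± 1.0 FPKM). Acmsd, which diverts tryptophan away from NAD, was at 10.8, 2.97 and 4.27 FPKM at ZT8 and at 14.7, 18.9 and 19.7 FPKM at ZT20, with ZT8 replicate 1 well above the others of its group. The calls of Nadsyn1 (without ZT8 replicate 2, ZT8 replicate 3, ZT20 replicate 1 or ZT20 replicate 2), Acmsd (without any but ZT8 replicate 1) and Naprt (without any of the 6) were lost, with adjusted p of up to 0.0808, 0.131 and 0.136. Without 1 liver, the list gave 0 to 2 genes higher at ZT20 and 1 to 3 higher at ZT8.

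Inflammatory lists leaned in opposite directions, by small differences in most genes. Of 20 acute-phase genes 18 had a positive difference. The list median was 0.31, and 0.05 to 0.45 when 1 liver was left out. At an unadjusted limma p under 0.05 the list held 1 gene of 20, against 29% of all tested genes. In that list 1 gene was called, Crp, which was at 171, 167 and 162 FPKM at ZT8 and at 225, 234 and 208 FPKM at ZT20, 1.33-fold higher (adjusted p = 0.0151). Hp (1488 ± 350 and 2191 ± 680 FPKM), Itih3 (225 ± 68 and 320 ± 71 FPKM) and Itih4 (404 ± 60 and 491 ± 104 FPKM) were not called (adjusted p = 0.234, 0.21 and 0.362), and their highest value in each group was in the liver of high Saa1. Of 20 interferon-stimulated genes, 5 were higher at ZT8 (Isg15, Irf7, Ifi44, Usp18 and Gbp7) and 1 at ZT20 (Bst2), against 6.55% and 5.35% of all tested genes. Their median was -0.13, with 5 positive differences, and 7 of the 20 had an unadjusted limma p under 0.05. Isg15 was at 12.9, 11.8 and 10.0 FPKM at ZT8 and at 5.39, 7.00 and 7.53 FPKM at ZT20, 1.74-fold higher at ZT8. Irf7, the regulator of interferon genes, was 1.35-fold higher (21.2 ± 1.5 and 15.7 ± 1.0 FPKM) and Ifi44 1.44-fold (0.987 ± 0.023 and 0.684 ± 0.069 FPKM), while Bst2 was 1.23-fold higher at ZT20 (139 ± 2 and 170 ± 10 FPKM). Without 1 liver each, at most 3 interferon-stimulated genes were called higher at ZT8, and without both livers of high Saa1 there were 2. The calls lost were those of Crp (without ZT8 replicate 2, ZT8 replicate 3, ZT20 replicate 1 or ZT20 replicate 2, adjusted p up to 0.066), Isg15 (without ZT8 replicate 2 or ZT20 replicate 2, up to 0.0777), Irf7 and Bst2 (without any but ZT8 replicate 1, up to 0.0743 and 0.126) and Ifi44 (without any of the 6, up to 0.109). The pooled fit lost the calls of Crp, Isg15, Irf7, Ifi44 and Bst2 (0.0573, 0.204, 0.179, 0.518 and 0.521).

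Ribosomal protein and respiratory chain genes stayed close to level. Of 72 cytosolic ribosomal protein genes none was called by limma, and their differences ran from -0.35 to 0.18 with a median of -0.02. At an unadjusted p under 0.05 there were 3, against 29% of all tested genes. In the respiratory chain 1 of 92 genes was called, Cox7a2l, which helps join complexes into supercomplexes (95.4 ± 4.9 and 77.8 ± 3.1 FPKM, adjusted p = 0.037). Cox6a1, another subunit gene, was at 554 ± 34 and 490 ± 80 FPKM (adjusted p = 0.367). The TCA cycle had 3 of 23 genes higher at ZT8 and none at ZT20, all with small differences. They were Idh3a (13.6 ± 0.7 and 10.1 ± 0.7 FPKM, 1.35-fold), Pdhb (79.3 ± 4.4 and 63.4 ± 1.6 FPKM, 1.25-fold) and Idh3g (43.7 ± 1.2 and 36.2 ± 0.9 FPKM, 1.21-fold). Over all tested genes, 6.55% were higher at ZT8 and 5.35% at ZT20. Of the 23 TCA cycle differences 3 were positive, with a list median of -0.14. When 1 liver was left out, 0 to 7 TCA cycle genes were called higher at ZT8. Proteasome genes gave 3 of 39 higher at ZT8, led by the immunoproteasome subunit Psmb10 (20.7 ± 0.7 and 14.2 ± 0.4 FPKM, 1.45-fold, adjusted p = 0.00488), with Psma7 and Psma5 at 1.23-fold and 1.22-fold. This share and that of ribosome biogenesis lie near the 6.55% of all tested genes. Of the 39 proteasome differences 6 were positive, and the list median was -0.10. At an unadjusted p under 0.05 the proteasome list held 14 genes. Ribosome biogenesis gave 2 of 30 higher at ZT8, Rrp9 (5.605 ± 0.614 and 3.62 ± 0.47 FPKM) and Rrn3 (5.36 ± 0.32 and 3.83 ± 0.50 FPKM). Of these calls Psmb10 alone held in every fit without 1 liver, and it was lost in the pooled fit (adjusted p = 0.363). Rrn3 was lost in all 6, Cox7a2l, Idh3g, Pdhb, Psma5, Psma7 and Rrp9 without any liver but ZT8 replicate 1, and Idh3a without ZT8 replicate 2, ZT8 replicate 3, ZT20 replicate 1 or ZT20 replicate 3, with adjusted p of up to 0.145. Without both livers of high Saa1 no TCA cycle gene was called.

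Markers of the liver cell types changed little between the time points. In bulk liver, fewer cells of a type and less RNA per cell cannot be told apart. None of the 8 hepatocyte, 10 Kupffer cell, 10 endothelial, 10 stellate, 8 tested leukocyte or 3 tested red cell markers was called by limma, and at an unadjusted p under 0.05 there were 2 hepatocyte markers, 1 leukocyte marker and none of the rest. Of all tested genes, 29% had an unadjusted p under 0.05. The summed level of the 10 Kupffer cell markers ran from 63.6 to 121 FPKM at ZT8 and from 72.4 to 102 FPKM at ZT20, that of the 10 endothelial markers from 53.5 to 77.4 and from 69.8 to 83.6 FPKM, and that of the 10 stellate markers from 92.6 to 155 and from 110 to 177 FPKM. Leukocyte markers with a row summed to no more than 3.28 FPKM in any of the 6 livers. Of 5 tested cholangiocyte markers, 2 were higher at ZT20. Krt19, a keratin of bile duct cells, was at 0.876, 0.590 and 0.311 FPKM at ZT8 and at 1.71, 1.96 and 1.35 FPKM at ZT20, and Sox9 was at 1.54, 1.14 and 1.63 FPKM against 2.63, 2.27 and 3.23 FPKM. The summed level of the 6 cholangiocyte markers was 27.3 to 41.1 FPKM at ZT8 and 32.1 to 49.4 FPKM at ZT20, with overlapping ranges. Both calls were lost in 4 of the 6 fits without 1 liver (adjusted p up to 0.0772 and 0.0884), held without ZT8 replicate 1 in both, and held without ZT20 replicate 3 in Krt19 and without ZT20 replicate 2 in Sox9. The pooled fit called neither (0.0827 and 0.115).

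The same time points in IH liver, from 6 other mice, gave 1789 genes (13.5%) higher at ZT20 and 2060 (15.6%) higher at ZT8. Of the 1572 genes called in control, 1255 were called in IH, which is 79.8% of the control calls and 32.6% of the 3849 IH calls. All but 1 of these 1255 went in the same direction. The sign was the same in IH for 98.1% of the 1572 genes called in control and for 75.4% of all tested genes. Across the 13215 genes the differences in control and IH correlated with r of 0.79, a description over genes, which are not independent, of libraries that share no mouse. Clock genes were close in size, for example Arntl with a log2 difference of 3.08 in control and 3.23 in IH, Nr1d1 with -4.64 and -5.11, Dbp with -5.18 and -5.54, and Cry1 with 2.27 and 2.26. The heat shock list had 9 genes called higher at ZT20 in control and 19 in IH, with medians of 0.38 and 0.84.

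Whether a difference itself differed between control and IH was tested as the interaction of condition and time point over the 12 livers. By limma, 0 genes (0%) passed an adjusted p of 0.05, the smallest adjusted p was 0.116, and 1347 genes (10.2%) had an unadjusted p under 0.05. No gene of control liver can therefore be called particular to control from these data, including those called in control alone. The 5 smallest p belonged to Gm3704, Chka, Flcn, Gpd1 and Sap30, with adjusted p between 0.116 and 0.142. Chka had a log2 difference of 2.63 in control and 3.42 in IH, Flcn, which encodes the nutrient-sensing protein folliculin, had -0.79 and -1.49, and Gm3704, a predicted gene whose reads may be shared with near copies, had -0.51 and -1.32. Sap30, of a histone deacetylase complex, was called in IH alone (2.36 ± 0.11 and 2.11 ± 0.12 FPKM in control, 1.67 ± 0.20 and 2.69 ± 0.13 FPKM in IH).

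Gpd1, the cytosolic glycerol 3-phosphate dehydrogenase, was the gene called in opposite directions. In control it was at 146, 157 and 144 FPKM at ZT8 and at 126, 121 and 115 FPKM at ZT20, 1.23-fold higher at ZT8 (adjusted p = 0.0372), and in IH the means were 102 ± 12 and 138 ± 9 FPKM. Its interaction was 0.74 ± 0.12 (SE, log2, adjusted p = 0.142), and its control call was lost without any liver but ZT8 replicate 1 (adjusted p up to 0.129). Among the metabolic genes the study discusses, Ldha, Cpt2, Pygl and Fbp1 were called in IH and not in control. Their control differences were 0.15, 0.21, 0.35 and 0.08, and their IH differences 0.55, 0.59, 0.43 and -0.21. The interaction adjusted p was 0.376, 0.475, 0.883 and 0.308. Igfbp1 was called in control (3.07) and not in IH (1.39), where its ZT20 level was 84.4 ± 82.6 FPKM, with an interaction adjusted p of 0.514.

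**Figure D5:**
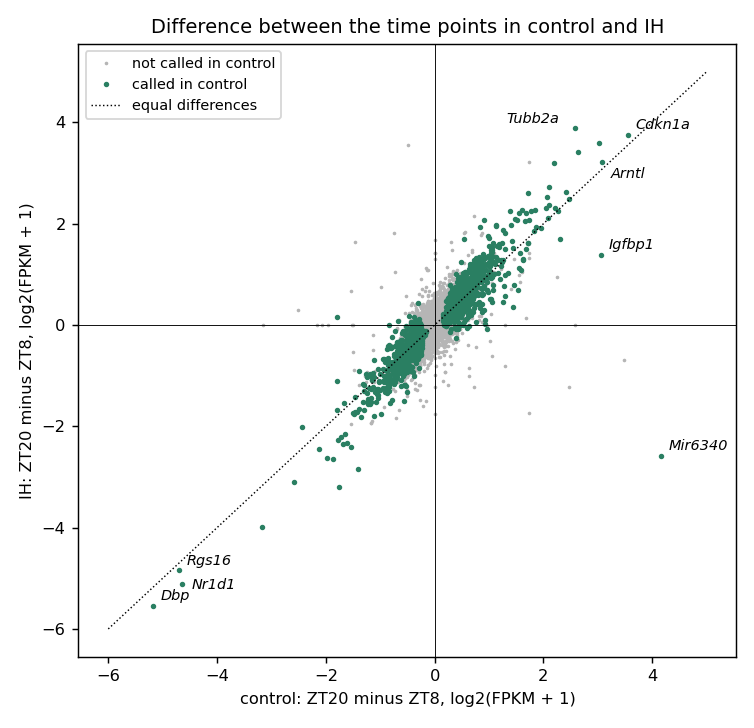
Difference between ZT20 and ZT8 (log2(FPKM + 1)) in IH liver against that in control liver for the 13215 tested genes, green where called in control and grey otherwise, with the dotted line marking equal differences. Arntl, Cdkn1a, Dbp, Nr1d1 and Rgs16 lie near the line, and Mir6340 and Igfbp1 lie away from it.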

How the data were processed

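Liver RNA of 36 mice was measured by the study, and 6 control livers (3 at ZT8, 3 at ZT20) are compared here, with 6 IH livers beside them. Each mouse gave 1 library, so replicates are separate animals. Per the labels and the study's methods, the authors prepared stranded libraries of polyadenylated RNA, mapped reads to mm10 by TopHat2 2.1.1, which runs Bowtie2, and then estimated FPKM per replicate by Cufflinks 2.2.1. The gene annotation, and whether counting used the strand, are not given in the sources used here. The deposited files hold no counts. Depth relative to ZT8 replicate 1 was read from the steps between low values (genes under 0.03 FPKM), within a window around equal depth. Absolute depth is unknown, and the precision of low genes is therefore limited. The values come as 1 table per condition with equal column names, and the condition was taken from the names of the tables.

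Symbols on more than 1 row (280) were left out. Those averaging 0.1 FPKM or more in the 36 libraries were analysed as log2(FPKM + 1), with a pseudocount of 1, which understates the change of low genes. The test was limma 3.58.1 in R 4.3.3 (moderated, intensity trend, two-sided, Benjamini-Hochberg adjustment over the genes tested), where the study used Cyber-T at a nominal P of 0.01. It was checked on simulated data with independent noise in each gene. That check held no shift shared by many genes of 1 liver, so it does not cover such shifts. Fold changes are ratios of mean FPKM. Errors of levels are SD over 3 livers, and those of log2 differences are SE.

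Members and lists were chosen with earlier results of these data known. Genes named were those of the clock lists, the 10 largest called differences each way, up to 4 of every other list by p, genes the study names, and the 5 smallest p of the interaction. Other called list members are listed by name, and were thus chosen after their values were seen. Coordinates are from GENCODE vM21 and promoters from RefSeq, GRCm38.p6, both equal to mm10. No promoter is shown for Per2 and Bhlhe40. Some genes that the rule names are not reported here. Figures used Python and matplotlib. Alternatives were other pseudocounts, filters, scalings, the 18 control livers, a replicate block, repeated symbols summed, no trend, and leaving out livers. Leaving out both livers of Saa1 above 500 FPKM, and all alternatives for IH, were added after the data were seen.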

Additional observations from a re-analysis of the deposited data

How the results depend on the processing

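Against the 707 genes higher at ZT20 and 865 higher at ZT8, a fit that took the spread from all 18 control livers called 374 and 224, so that 62.5% of its calls were higher at ZT20 against 45.0% in the main comparison. Leaving out 1 liver gave 300 to 696 and 204 to 1399. The other alternatives stayed within 1.5 times of both counts. Of 156 named genes, called or not, 22 lost their call without both livers of high Saa1, and not every such loss is given above. In IH, leaving out 1 liver gave 1034 to 1738 genes higher at ZT20 and 1229 to 1879 higher at ZT8. The interaction called 370 genes at an unadjusted p under 0.01, and 0 to 1 at the adjusted threshold when 1 liver was left out. Pck1, not called, had differences from -0.0176 (without ZT20 replicate 3, a change of sign) to 0.284 when 1 liver was left out. With replicate number as a block, 660 genes were higher at ZT20 and 772 higher at ZT8, of which 1197 in all were shared with the 1572. Same-numbered livers deviated together with r of 0.30, 0.24 and 0.02, and differently numbered ones with r from -0.37 to 0.22. These values do not settle whether the numbers pair the mice, and the main comparison treated the livers as unpaired. Both livers of high Saa1 carry the number 1. The causes of these shifts were not tested. Depth is unknown in absolute terms, which limits what low values can show, and 3 livers per time point limit small differences.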
